A study of Mus musculus with 4 samples.

Results

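The comparison described here set the gastric corpus of mice 4.5 days after tamoxifen against the gastric corpus of mice given vehicle. It used 2 of the series' 4 microarrays, the one titled Tamoxifen d4.5 and the one titled Vehicle d2.5, and 18193 genes, all the genes read in the series. A gene was read from probe sets annotated with exactly 1 gene symbol, and from the one with the highest mean over the 4 arrays where there were several. All mice were labelled wild type and were 6 weeks old at treatment. Strains named for the study were FVB/N, BALB/c and C57BL/6, and no label ties a strain or a sex to an array. Tamoxifen, a selective estrogen receptor modulator, was given into the peritoneum at 5 mg per 20 g of body weight to bring about spasmolytic polypeptide-expressing metaplasia (SPEM), in 10% ethanol and 90% sunflower seed oil, and the labels do not say whether this pool had 1 or 3 days of injection. Vehicle mice were collected at 2.5 days, 2 days earlier than the 4.5-day mice, so drug and time of collection cannot be told apart in this comparison. Each array measured 1 pool of RNA from 3 mice, so the spread between mice is unknown and no p-value is given. The arrays at 12 hours and 2.5 days after tamoxifen, also 1 pool each, are given as levels beside the members that changed with time.

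The corpus makes acid and pepsinogen in long glands. Parietal cells pump protons through the H+/K+-ATPase, chief cells at the gland base store zymogens in granules, mucous neck cells secrete trefoil factor 2 and mucin 6, and surface mucous cells secrete gastrokines and mucin 5AC. After loss of parietal cells, chief and neck cells can take up a wound-type mucous program, which is what SPEM names, and proliferation in the gland increases. Tamoxifen at high dose is known as an agent that kills parietal cells in mice.

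Levels are given as log2 values after RMA, and a difference of 1 on this scale is 2-fold. A gene was taken as expressed when its larger value in the pair reached the median of its array, and as higher or lower when it was also at least 2-fold different. Differences under this size are given as values only. The medians of both arrays were 5.31 and 5.32 for vehicle and 4.5 days. The 18 hybridisation control probe sets differed by -0.16 on average with an SD of 0.08, and 19 poly-A control probe sets by 0.07 with an SD of 0.21 and a largest single difference of 0.72. Y-linked genes were present on both arrays, with Eif2s3y at 8.82 in vehicle and 9.03 at 4.5 days and Uty at 7.15 and 7.01, and Xist stood at 5.06 and 5.02, below both medians.

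The labelled tissue was checked against its markers in vehicle. Markers of parietal (Atp4b, 14.19), chief (Pgc, 14.28) and surface mucous cells (Gkn2, 14.75) were near the top of the scale. Transcripts typical of tissue beyond the corpus glands were also expressed. Gastrin (Gast), a hormone of the antrum, was at 12.16 in vehicle and 11.59 at 4.5 days. Smooth muscle actin (Acta2) was at 13.71 and 13.21, the forestomach keratin Krt4 at 10.89 and 9.82, the enterocyte fatty acid binding protein gene Fabp2 at 10.11 and 8.91, and colipase (Clps), best known from the exocrine pancreas, at 14.67 and 12.75. Not all markers of these tissues were expressed. The acinar genes Cela2a, Ctrl, Cpa1, Cpb1 and Gp2 and the intestinal genes Cdx1, Muc2, Atoh1, Reg4 and Cdh17 were below the expression cut-off on both arrays, and 7 of 12 genes of each list were expressed.

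The 12-hour array, quoted below for levels, stood apart in markers of other tissues. Its acinar list median was 5.97 above vehicle, with Cela2a at 13.62 against 4.29, while Clps was at 14.64 against 14.67. Its squamous list median differed from vehicle by -3.27, with Krt4 at 4.74 against 10.89 and Krtdap at 4.21 against 11.36. The part of these tissues in the other 12-hour levels was not tested.

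At 4.5 days 468 genes were higher and 335 were lower than in vehicle, which is 3.8% and 2.72% of the 12303 expressed genes. The counts of higher and lower members in every list below are to be read beside these shares. Genes of the zymogenic and acid-secreting cells were among the named lower ones, with pepsinogens, gastric chitinase and ion transporters. The higher side held cell cycle and nucleolar genes, interferon-induced genes, extracellular proteases, mast cell proteases and a part of the mucous neck and SPEM list. The median difference of all expressed genes was -0.01, and the middle 50% of them lay between -0.26 and 0.27.

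Of the higher genes 126 were at least 3-fold and 46 at least 4-fold different, and of the lower genes 108 and 51. Vehicle was under its array median for 100 of the 468 higher genes, and the 4.5-day array for 51 of the 335 lower ones. Such genes counted as expressed only through the array on which they were brighter. RMA compresses values at that end of the scale. Where a higher gene had at least 2 probe sets in the expressed range (161 genes), all of them pointed the same way in 156. For lower genes this held in 117 of 122. Centring both arrays on the hybridisation controls shifted the median of expressed genes to 0.16 and turned the counts into 701 higher and 227 lower, so that 75.5% of the calls were higher in place of 58.3%.

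**Figure D1:**
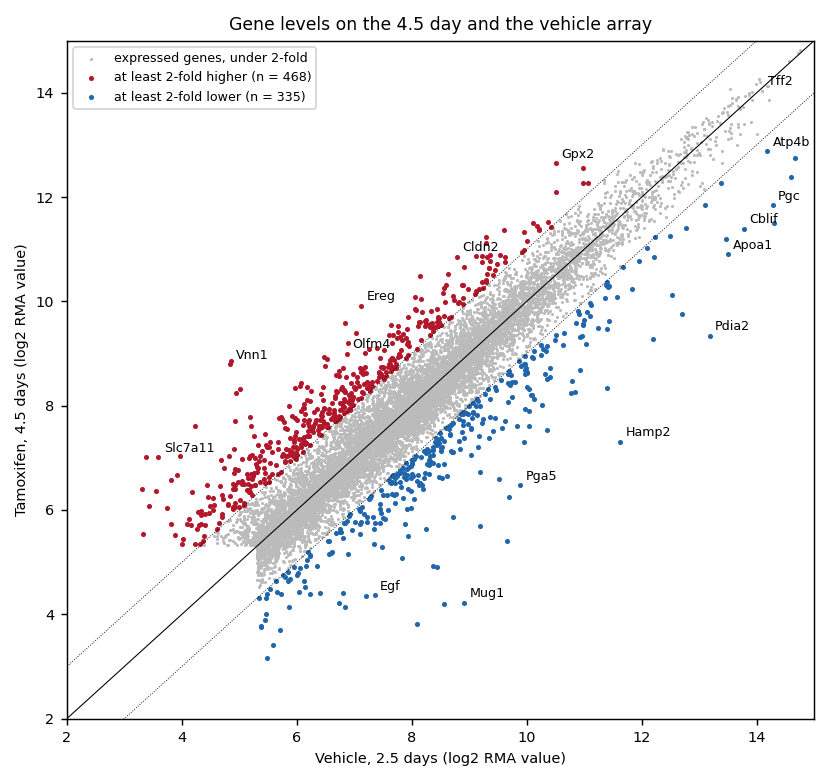
Level of each expressed gene in vehicle (horizontal axis, log2 RMA value) and 4.5 days after tamoxifen (vertical axis, log2 RMA value), 1 array each; the solid line is equality and the dotted lines are 2-fold. The 468 red points are higher and the 335 blue points lower, with Tff2 on the line at 14.10 and 14.04 and Pdia2 far below it at 13.19 and 9.35.

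Chief cell genes had the lowest median of the 56 gene lists examined, -2.39 over 9 measured members. Of the 8 that were expressed, 6 were lower and 1 was higher, against the background of 2.72% and 3.8%. Pgc, which encodes progastricsin, was at 14.28 in vehicle, 14.12 at 12 hours, 13.01 at 2.5 days and 11.84 at 4.5 days. The acidic chitinase gene Chia1 held its vehicle level of 14.31 at 12 hours, stood at 13.69 at 2.5 days and was at 11.51 at 4.5 days. Pga5, the pepsinogen 5 gene, ran from 9.88 over 9.67 and 7.60 to 6.48, which is 10.6-fold lower. The 3 zymogen-granule genes thus had their lowest of 4 levels on the 4.5-day array. Cblif, which encodes gastric intrinsic factor, was also lowest there, at 11.39 against 13.78. Bhlha15 (Mist1), the transcription factor that scales up the secretory apparatus of zymogenic cells, was already at 7.19 at 12 hours, from 9.15, and at 7.20 at 4.5 days. A second probe set of Bhlha15, below the expression cut-off, gave 0.049.

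Other genes of the secretory pathway of zymogenic cells lay beside these. Tmed6, a member of the p24 family of cargo carriers between the endoplasmic reticulum and the Golgi, was at 12.21 in vehicle and 9.28 at 4.5 days. Pdia2, a protein disulfide isomerase, was at 13.19 and 9.35, while the general ER chaperones were within 2-fold. Hspa5 (BiP) was at 0.40 and Hsp90b1 at 0.32, and 17 of the 18 members of the ER chaperone list were within 2-fold, with a list median of 0.06. The small GTPase gene Rab3d of secretory granules was at -0.33. The lipase and phospholipase genes Pnliprp2 and Pla2g1b, known from pancreas, were at 11.40 and 14.61 in vehicle and differed by -3.07 and -2.23. Rnase1, a secreted ribonuclease also abundant in pancreas, was at 9.19 in vehicle, 11.49 at 12 hours, 4.67 at 2.5 days and 5.69 at 4.5 days.

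The higher member of the chief cell list was Tnfrsf19 (Troy), a receptor known as a marker of chief cells with progenitor capacity. It was at 7.04 in vehicle, 5.94 at 12 hours, 8.08 at 2.5 days and 8.45 at 4.5 days, and its other bright probe set differed by 0.99, under 2-fold. Lgr5, another marker of gland-base cells, differed by 0.41 and the transcription factor gene Ascl2 by 0.89. None of the 9 measured genes of the stem and isthmus list was past 2-fold, and their median was 0.10.

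Of 17 measured parietal cell genes 16 were expressed, 10 of them lower and none higher, with a median of -1.10. The catalytic and beta subunits of the proton pump, Atp4a and Atp4b, were at 13.38 and 14.19 in vehicle and at 12.28 and 12.88 at 4.5 days. Both had been lower still at 2.5 days, at 12.04 and 12.45. Slc26a7, a chloride and bicarbonate exchanger of the parietal cell, went from 8.56 to 6.18, 5.19 and 4.19 on the successive arrays, the last 2 below the array median. The potassium channel gene Kcnj16 was at 9.96 and 7.30, and its 2 bright probe sets gave -2.66 and -2.88. Kcne2, the accessory subunit of the potassium channel that recycles K+ to the pump, was at 10.90 in vehicle, 8.05 at 12 hours and 9.76 at 4.5 days. The basolateral anion exchanger gene Slc4a2 was at 10.65 and 9.39. The gastrin receptor gene Cckbr was at 7.86 and 6.22 on its brighter probe set. Its other one, below the expression cut-off, gave a difference of 0.42.

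Other parietal genes were within 2-fold. Car2, the cytosolic carbonic anhydrase that supplies protons, was at 13.68 and 13.74, and Ezr, the cytoskeletal linker of the canaliculus, differed by -0.11. Esrrg, an orphan nuclear receptor of parietal cells, was at -0.75 and the histamine receptor gene Hrh2 at -0.68, both within 2-fold. Aqp4, a water channel of parietal cells at the gland base, was at 9.15 in vehicle, 6.79 at 12 hours, 6.10 at 2.5 days and 8.09 at 4.5 days. Of the 17 parietal genes it was the only one at least 2-fold higher at 4.5 days than at 2.5 days. In pooled whole-tissue RNA, fewer cells of a type and less RNA per cell cannot be told apart.

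**Figure D2:**
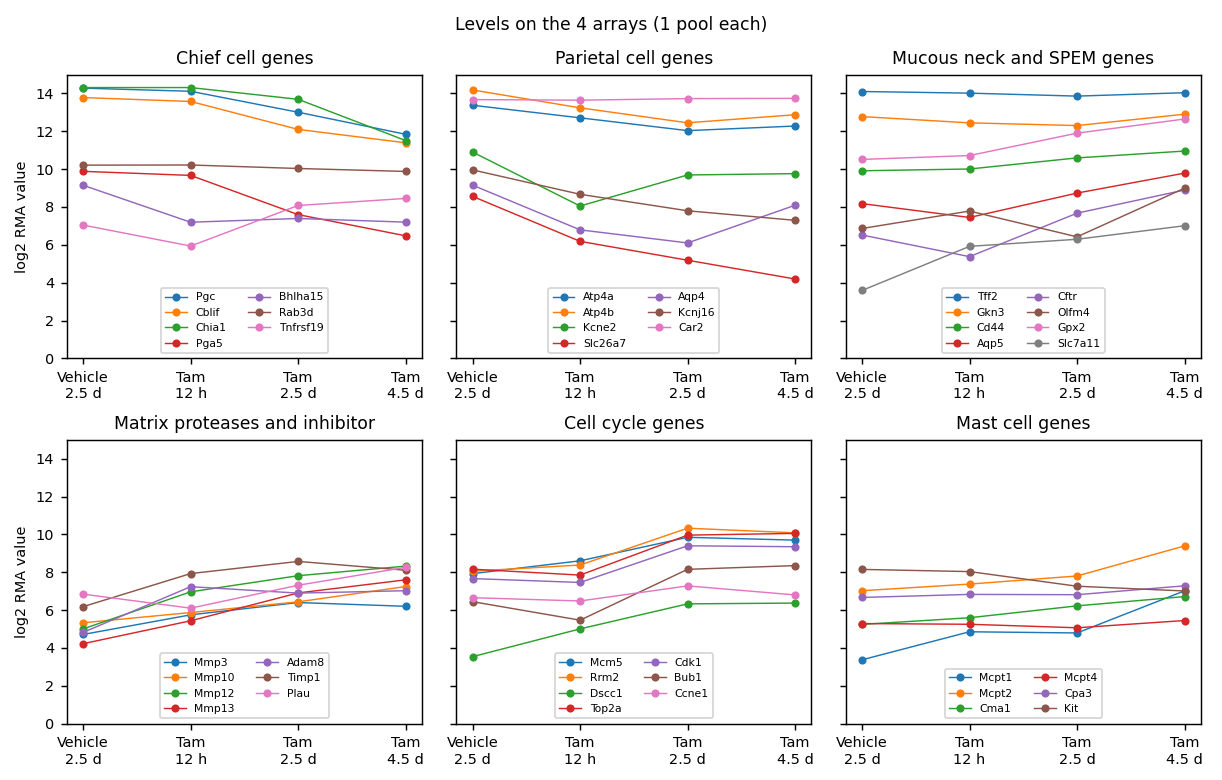
Levels (log2 RMA value, vertical axis) of chosen members of 6 gene groups on the 4 arrays, each a pool of 3 mice: vehicle first, then tamoxifen (Tam) from the earliest to the latest time; lines join points of 1 gene only to guide the eye. Pgc, Chia1 and Pga5 are lowest at 4.5 days, Aqp4 is back at 8.09 from 6.10, and Mcpt1 stands at 7.02 on the last array against 3.38 to 4.86 on the others.

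Ion and iron handling genes are given next, from their lists. In the list of anion, sodium and potassium transporters 5 of 15 expressed members were lower and none higher. Apart from Slc26a7 and Slc4a2, which are also parietal list members, these were the exchanger gene Slc26a6 at -1.53, the iodide transporter gene Slc5a5 at -1.19 (-0.31 on its other bright probe set) and the potassium channel gene Kcnk5 at -1.09. Hamp2, one of the mouse hepcidin genes, was at 11.62 in vehicle and 7.31 at 4.5 days. Its relative Hamp, the iron-regulating hormone gene, was at 7.11 and 6.33, within 2-fold. Cybrd1, a ferric reductase, was at 10.12 and 8.12, and the other 8 expressed genes of the iron list were within 2-fold.

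Lpl, the lipoprotein lipase gene, was at 12.70 in vehicle and 9.76 at 4.5 days, and its 2 probe sets gave -2.94 and -2.89. Apoa1 and Apoa4, the apolipoproteins of high-density and intestinal particles, were at 13.50 and 9.51 in vehicle and at 10.90 and 6.59 at 4.5 days. Apoc2, whose product activates lipoprotein lipase, went the other way, from 5.21 to 7.61. Transthyretin (Ttr), a thyroid hormone carrier, was at 12.53 and 10.13 over 4 bright probe sets. The hepatocyte genes Alb, Fga, Fgb, Ahsg and Cps1 were all below the expression cut-off on both arrays. The adipocyte gene Adipoq differed by -1.05, with Fabp4 of the same list at -0.14.

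Egf, the epidermal growth factor gene, was at 7.35 in vehicle and 5.82, 4.68 and 4.37 on the successive tamoxifen arrays. Gper1, a membrane receptor that binds estrogen and tamoxifen metabolites, was at 8.37, 5.81, 5.56 and 4.93, and its 2 probe sets differed by -3.44 and -2.74. The nuclear estrogen receptor genes Esr1 and Esr2 were below the cut-off on both arrays, and no other of the 7 expressed genes of the estrogen list was past 2-fold. Sostdc1, a secreted antagonist of BMP and Wnt signals, was at 8.25 and 5.64. Cldn8, a claudin of tight junctions, was at 7.21 and 4.34. The proprotein convertase gene Furin was at 10.85 and 8.26, the thyroid hormone deiodinase gene Dio1 at 6.73 and 4.22, and the lysine catabolism gene Aass at 7.84 and 5.07. Adhfe1 (-2.84), Rdh7 (-2.80), Pld6 (-2.71), Fut9 (-2.45), Pde1c (-2.44, and -1.34 on its other bright probe set) and Tent5c (-2.42) completed the genes ranked 11 to 30.

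**Figure D3:**
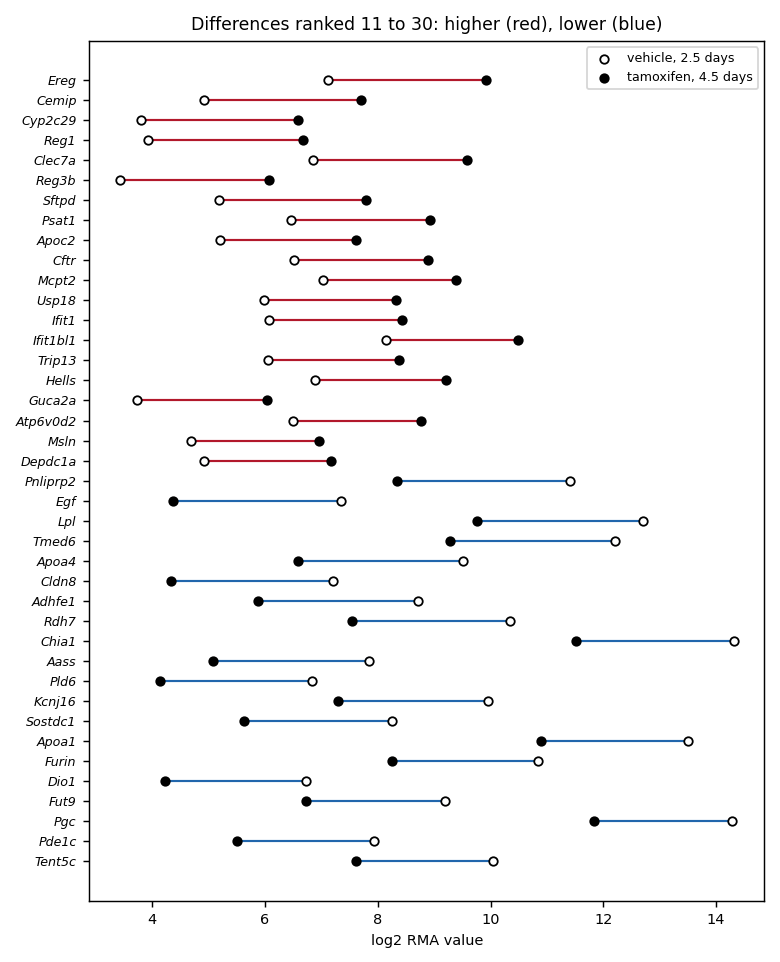
Levels in vehicle (open points) and 4.5 days after tamoxifen (filled points) on the log2 RMA scale (horizontal axis) for the named expressed genes whose increases (red lines) and decreases (blue lines) ranked 11 to 30. Ereg, at 7.11 and 9.92, heads the increases and Pnliprp2, at 11.40 and 8.34, the decreases; 1 array per condition.

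The mucous neck and SPEM list had 19 measured members, all expressed. Of these 10 were higher and none lower, with a median of 1.04 against -0.01 for all expressed genes. Slc7a11, the cystine transporter named as a SPEM marker, was at 3.59 in vehicle and 5.92, 6.29 and 7.01 on the tamoxifen arrays. Its 2 probe sets gave 1.49 and 3.42. Cftr, an apical chloride channel, was at 6.52, 5.38, 7.67 and 8.90. Gpx2, an epithelial glutathione peroxidase, was at 10.51, 10.72, 11.90 and 12.65. Il33, an alarmin cytokine, was at 9.60, 8.32, 10.33 and 11.36, and the water channel gene Aqp5 at 8.18, 7.45, 8.74 and 9.79. For each of these 5 genes the 4.5-day array had the highest of the 4 levels, and for Cftr, Il33 and Aqp5 the 12-hour array, which stood apart in acinar and squamous markers, had the lowest.

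Olfm4, a secreted glycoprotein of intestinal crypts, differed from that pattern, at 6.86 in vehicle, 7.79 at 12 hours, 6.42 at 2.5 days and 8.99 at 4.5 days. The receptor gene Cd44 was at 9.91 and 10.96, with 3 bright probe sets, and Dmbt1, a mucosal scavenger protein, was at 10.97 in vehicle and 12.27 at 4.5 days, and differed by -0.73 between 2.5 and 4.5 days. Of the genes that define mucous neck cells in the normal gland, Tff2 and Gkn3 were within 2-fold. The mucin gene Muc6 was not analysed. Tff2 was at 14.10 and 14.04, and the neck cell gastrokine gene Gkn3 at 12.78 and 12.90. The widely used SPEM markers Clu, Wfdc2 and Sox9 differed by 0.54, 0.89 and 0.31. The level of Tff2 in vehicle was close to the top of the scale, 14.75 on that array, where differences can be compressed.

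Surface mucous genes had a median of -0.11 over 12 expressed members, which became 0.05 with centring on the hybridisation controls. Gkn1, Gkn2 and Tff1 differed by 0.04, 0.07 and 0.03. All were above 14 on both arrays, close to the top of the scale, where differences can be compressed. Muc5ac, the surface mucin gene, was at 13.78 and 13.41. The calpain gene Capn9 was the 1 member past 2-fold on the probe set read, at 10.51 and 9.36. Ctse, a cathepsin gene, differed by -0.07 on the probe set read and by 1.54 on its other bright one. Of the simple epithelial keratins, Krt7 differed by 0.84 and the other 5 by no more than 0.40 in size. None of 16 expressed gastric transcription factors was past 2-fold; Foxa2 was at -0.43, Gata4 at -0.18, Sox2 at 0.22 and Klf5 at 0.46.

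Among claudin and junction genes 3 of 13 expressed members were higher and 1, Cldn8, was lower, beside 3.8% and 2.72% of all expressed genes. Cldn2, which forms cation pores in leaky epithelia, was at 8.78 in vehicle, 7.84 at 12 hours, 10.17 at 2.5 days and 10.86 at 4.5 days. Its 2 bright probe sets gave 1.10 and 2.08. Cldn7 was at 6.93 and 8.18 and Cldn4 at 5.67 and 6.70. The stomach-type claudin gene Cldn18 differed by 0.51 and E-cadherin (Cdh1) by 0.00.

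**Figure D4:**
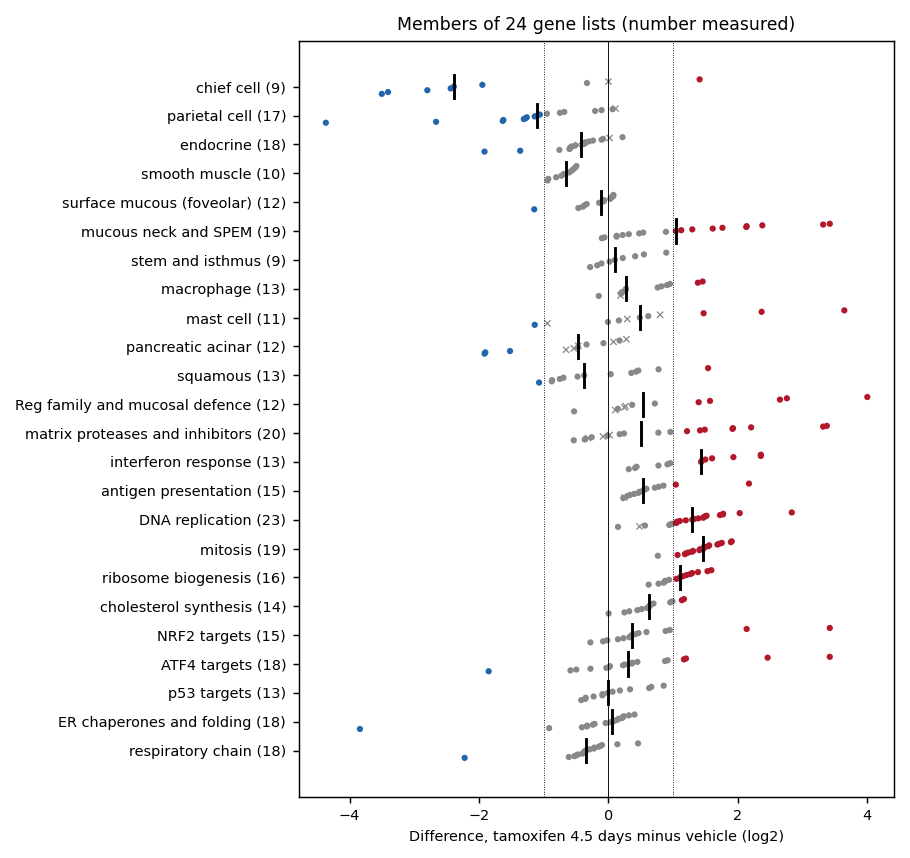
Difference between 4.5 days after tamoxifen and vehicle (log2, horizontal axis) for each measured member of 24 gene lists, with the number measured in parentheses; red and blue mark at least 2-fold, crosses mark members below the expression cut-off and black bars the list medians. Chief cell members sit mostly left of -1 with a median of -2.39, and 18 of 19 mitosis members sit right of 1; 1 array per condition.

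Ligands of the EGF receptor family differed in direction. Ereg (epiregulin) was at 7.11 in vehicle, 6.61 at 12 hours, 9.11 at 2.5 days and 9.92 at 4.5 days, 6.98-fold higher at the last time, while Egf, given above, was lower. Nrg1, a ligand of ERBB3, was at 4.97 and 6.76. Tgfa, Hbegf and Btc differed by 0.11, 0.74 and 0.48, and the receptor genes Egfr, Erbb2 and Erbb3 by 0.04, 0.13 and 0.00. Of the 10 expressed genes of this list 2 were higher and 1 lower, beside 3.8% and 2.72% of all expressed genes.

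Among extracellular proteases and their inhibitors 8 of 17 expressed members were higher and none lower, against 3.8% of all expressed genes. Of the higher ones, Mmp3, Mmp12, Mmp13 and Adam8 were below the array median in vehicle. They counted as expressed only through the 4.5-day array. The median of the 20 measured was 0.51. It became 0.80 with the probe set brightest on the 2 arrays compared. With each gene read from its probe set of median absolute difference it was 0.27. That reading takes the lower middle probe set where their number is even, so a smaller difference is partly built in. The collagenase gene Mmp13 was at 4.23 in vehicle and 5.44, 6.91 and 7.60 on the tamoxifen arrays. Mmp12, which encodes an elastase of macrophages and is also in the SPEM list, was at 5.01, 6.97, 7.82 and 8.33. The stromelysin gene Mmp10 was at 7.25 at 4.5 days against 5.33, and Mmp3, another stromelysin, differed by 1.49. Adam8, a membrane protease of leukocytes, was at 4.82 and 7.03. The urokinase gene Plau and its receptor gene Plaur differed by 1.41 and 1.21, and the other bright probe set of Plau by 0.69, under 2-fold. Timp1, the inhibitor, was at 6.18 in vehicle and 8.11 at 4.5 days, after 8.57 at 2.5 days, whereas Timp2, Timp3 and Timp4 differed by -0.36, -0.26 and -0.54. Mmp2, Mmp14 and Mmp7, all expressed, differed by no more than 0.24 in size. Cemip, which takes part in breakdown of hyaluronan, was at 4.93 and 7.71. Of the matrix genes themselves, 2 of 17 expressed were higher, Col18a1 at 1.69 and tenascin C (Tnc) at 1.21 (1.96 on its other bright probe set), beside the same 3.8%.

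In the defence list 5 of 9 expressed genes were higher, against 3.8% of all expressed genes. Reg3g, a lectin that kills Gram-positive bacteria, was at 4.86 in vehicle, 6.76, 7.60 and 8.86, with the vehicle level below its array median. Its relatives differed in time course. Reg3b was at 3.43, 10.94, 8.49 and 6.08, and Reg1 at 3.92, 11.20, 6.51 and 6.68; both peaked on the 12-hour array, where the pancreatic acinar list had a median of 5.97 above vehicle. The 2 bright probe sets of Reg3b differed at 4.5 days by 0.97 and 2.65, the smaller under 2-fold. Lysozyme 1 (Lyz1) was at 10.99 and 12.56, and Pigr, the receptor that carries IgA across epithelium, at 8.23 and 9.63. Sftpd, the collectin surfactant protein D, was at 5.18 and 7.79. Reg2, Reg3a and Nos2 were below the cut-off on both arrays.

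Mast cell genes differed in direction. Mcpt1 and Mcpt2, proteases of mucosal mast cells, were at 3.38 and 7.03 in vehicle and at 7.02 and 9.39 at 4.5 days. At 2.5 days they had been at 4.79 and 7.81. Cma1, a chymase gene, was at 5.25 and 6.72. The other granule protease genes Mcpt4, Tpsb2 and Cpa3 differed by 0.16, 0.48 and 0.61. Kit, the stem cell factor receptor that mast cells share with the pacemaker cells of gut muscle, was lower, at 8.15 and 7.01, and Ms4a2 and Fcer1a, subunits of the IgE receptor, were below the cut-off. The smooth muscle list had a median of -0.65 with all 10 members lower in sign and none past 2-fold. It holds contractile genes and no pacemaker cell marker, and which cells gave the lower Kit was not tested.

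Of 12 expressed macrophage genes 2 were higher, Cd14 at 1.46 and Lyz2 at 1.38, beside 3.8% of all expressed genes, and the median of the 13 measured was 0.27. The complement genes C1qa, C1qb and C1qc differed by 0.95, 0.76 and 0.90, and the lineage genes Csf1r and Adgre1 by 0.27 and 0.20. Clec7a (dectin-1), a receptor for fungal glucan on myeloid cells, was at 6.84 and 9.59. Lysosomal Ctss, the protease of antigen-presenting cells, was at 9.22 and 10.87, while cathepsins B and D differed by -0.02 and -0.03. Neutrophil genes S100a8 and S100a9 were at 0.71 and -0.41, and 5 of the 7 measured neutrophil genes were below the cut-off. None of the 5 eosinophil genes was expressed, and of the lymphocyte lists 3 of 11 T and cytotoxic genes and 3 of 8 B and plasma cell genes were, none past 2-fold.

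In the interleukin 1 family 3 of 9 expressed genes were higher. Il1rn, the receptor antagonist, was at 3.96 and 7.04, with 3 bright probe sets from 0.30 to 3.08. The receptor gene Il1r1 was at 7.43 and 8.65, and Il33 is given above. Il1b differed by 0.84 and Il18 by -0.55. Of the 16 genes of the type 2 response list 8 were expressed. Clca1, a goblet cell protein, was lower at -1.01 with a second bright probe set at -0.19, and Il4, Il5, Il13 and Il25 were all below the cut-off. Chemokines had 3 of 17 expressed genes higher, the interferon-induced Cxcl9 at 1.65, Ccl8 at 1.36 and Cxcl14 at 1.34 (2.47 on its other bright probe set). Counts as small as these, here and in the lists below with 1 to 3 calls, are to be read beside the 3.8% higher and 2.72% lower among all expressed genes.

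Interferon-induced genes had a median of 1.43 over 13 members, all expressed, of which 7 were higher and none lower. Promoters of the genes with the interferon-stimulated response element motif are printed because these genes were higher together. The motif searched was GAAA, any 2 bases and GAAA on both strands in the 250 bases before a RefSeq gene start, and capitals mark matches, which read here as TTTC, any 2 bases and TTTC because they lie on the other strand. Ifit1 (chr19:34640759-34640858) and Ifit3 (chr19:34583362-34583461), both on the plus strand of GRCm38.p6, read as follows.
Ifit1: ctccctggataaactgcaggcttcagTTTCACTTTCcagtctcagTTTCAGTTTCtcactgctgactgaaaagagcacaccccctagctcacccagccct
Ifit3: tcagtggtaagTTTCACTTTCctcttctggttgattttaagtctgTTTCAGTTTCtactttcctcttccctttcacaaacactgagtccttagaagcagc
Each window held 2 matches. RefSeq promoters were found for 11 of the 13 members, and 5 of the 11 had a match, including 4 of the 6 higher ones. Of all 32851 promoters searched 2.98% had one. Counted by gene, as the members are, 3.46% of the 27025 genes with a promoter searched had a match. A match is a match of letters and does not show binding.

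Ifit1, an antiviral RNA-binding protein, was at 6.07 in vehicle and 7.29, 8.14 and 8.43 on the tamoxifen arrays. Usp18, which removes the ubiquitin-like ISG15, was at 5.97, 6.95, 7.87 and 8.33. Oasl2 was at 6.74 and 8.67 and Oas1a, an RNA sensor, at 8.88 and 10.32. For Irf7, the transcription factor of the interferon loop, and Ifit3 the 2.5-day levels of 8.22 and 7.87 were above those at 4.5 days, 7.73 and 7.39. Mx1, Stat2 and Ifit2 differed by 0.43, 0.41 and 0.31. In antigen presentation all 15 measured genes had a positive difference, with a median of 0.53, and 2 of 14 expressed ones were higher, Nlrc5, the activator of class I genes, at 2.17 and the immunoproteasome gene Psmb8 at 1.04.

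Cell cycle genes were higher in both lists. Of 22 expressed DNA replication genes 17 were higher, and of 19 mitosis genes 18 were, with medians of 1.29 and 1.47 and no member of either list below vehicle. The E2F motif searched was TTTGGCGC or TTTCGCGC on both strands. It was in the upstream window of 4 of the 17 replication genes with a RefSeq promoter, 3 of them among the 13 higher ones. Among everything searched it was in 0.759% of genes, counted as the members are, and in 0.654% of promoters. The windows of Mcm5 (chr8:75109314-75109413, plus strand) and Mcm6 (chr1:128359706-128359805, minus strand), subunits of the replicative helicase, are printed as the examples with the largest increase, with matches in capitals.
Mcm5: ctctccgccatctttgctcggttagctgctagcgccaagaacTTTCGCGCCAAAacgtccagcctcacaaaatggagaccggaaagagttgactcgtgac
Mcm6: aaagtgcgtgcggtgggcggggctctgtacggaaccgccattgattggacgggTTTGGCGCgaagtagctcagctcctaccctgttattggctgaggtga
The capitals of Mcm5 hold 2 overlapping matches, 1 on each strand.

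Mcm5 was at 7.93 in vehicle, 8.61 at 12 hours, 9.85 at 2.5 days and 9.70 at 4.5 days. Rrm2, a subunit of the enzyme that makes deoxynucleotides, was at 8.06, 8.38, 10.33 and 10.08. The cohesion factor gene Dscc1 was at 3.54, 5.01, 6.33 and 6.37. Cyclin E1 (Ccne1) differed by 0.15 on the probe set read and by 1.46 on its other bright one. Cyclin E2 (Ccne2) differed by 1.46, and Pcna, the sliding clamp, by 0.94. Of the replication genes Cdc45 had a second bright probe set at -0.11 against 1.19.

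Among mitotic genes Bub1, a checkpoint kinase, was at 6.45, 5.47, 8.16 and 8.35 and the topoisomerase gene Top2a at 8.16, 7.85, 9.96 and 10.06, with 1.11 on the other bright probe set of Top2a. The proliferation antigen gene Mki67 was at 9.62 and 10.85, and the cyclin-dependent kinase gene Cdk1 at 7.67 and 9.35. The spindle gene Tpx2 was at 1.47 on its brightest probe set, and 3 bright probe sets ranged from -0.02 to 1.47. Trip13 and Hells, a checkpoint ATPase and a chromatin remodeller outside both lists, were at 6.05 and 6.89 in vehicle and at 8.37 and 9.21 at 4.5 days. The other bright probe set of Hells differed by 0.78, under 2-fold. All 13 measured p53 targets were expressed and none was past 2-fold. Cdkn1a (p21) was at 10.89 and 10.96 and Mdm2 at 8.39 and 9.02.

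Ribosome biogenesis genes were higher in 10 of 16 cases, with a median of 1.11 and the smallest difference at 0.62. Nucleolin (Ncl) was at 10.51 and 12.10, nucleophosmin (Npm1) at 11.07 and 12.28, and the box C/D particle gene Nop58 at 7.84 and 9.37. Myc, a regulator of these genes, was at 7.79 and 8.96, with 8.89 at 12 hours. Immediate early genes had 5 of 13 expressed members higher, among them Egr1 at 9.21 and 10.75 and Fosl1 at 6.12 and 7.41, while Fos and Jun differed by 0.20 and -0.25. Sterol synthesis genes had 2 of 14 higher, Mvd at 1.17 (0.70 on its other bright probe set) and Idi1 at 1.13, with a median of 0.63 and no negative difference.

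In the targets of ATF4, a transcription factor of the amino acid response, 4 of 18 expressed genes were higher and 1 lower. Psat1, Phgdh and Shmt2, enzymes of serine and glycine synthesis, were at 6.47, 8.80 and 7.95 in vehicle and at 8.93, 9.97 and 9.15 at 4.5 days, and Psph of the same route differed by 0.92. Bright probe sets of Phgdh ranged from 0.52 to 1.35 and the lowest of Shmt2 was at 0.36, so each call was lost on another probe set. The fourth was Slc7a11. Its upstream window (chr3:50443614-50443713, minus strand) is printed because it holds the motif searched for this list, TGATGNAA, once on each strand, in capitals. That motif was present in 5 of 17 list members with a promoter, in 1 of the 4 higher ones and in the lower member Nupr1. It was in 3.91% of all genes and 3.45% of all promoters searched.
Slc7a11: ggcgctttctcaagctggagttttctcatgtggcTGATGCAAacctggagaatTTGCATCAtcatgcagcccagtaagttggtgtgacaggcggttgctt
The stress genes Ddit3 (CHOP), Chac1 and Trib3 differed by -0.50, -0.59 and 0.01, and Nupr1, also abundant in pancreas, was lower at -1.85. The NRF2 motif TGACNNNGC was upstream of 2 of 11 NRF2 target genes with a promoter and of 0 of the 2 higher members. Among all searched, 11.5% of genes and 10.2% of promoters had it.

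NRF2 targets had 2 of 15 genes higher, Slc7a11 and Gpx2, both also members of the SPEM list. Srxn1 and Gclc differed by 0.95 and 0.88, Hmox1 by 0.32 and Nqo1 by -0.28, and the list median was 0.36. Vnn1, a pantetheinase that frees cysteamine from pantetheine, was at 4.84 in vehicle and 6.02, 7.81 and 8.80 on the tamoxifen arrays, while the other 8 genes of the vanin and coenzyme A list were within 2-fold, Vnn3 at 0.37.

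The 18 respiratory chain subunits had a median of -0.35, with 16 negative differences, and Cox7a1, the contractile tissue isoform of a cytochrome oxidase subunit, was the 1 past 2-fold, at 9.84 and 7.61. The fatty acid oxidation genes Acadm and Ppara differed by -0.96 and -0.94, whereas the acyl-CoA thioesterase gene Acot1 was higher at 1.45. Glycolysis genes had a median of 0.14, with the regulatory enzyme gene Pfkfb3 at -1.31. In the glycosyltransferase list B4galnt2, which caps glycans with N-acetylgalactosamine, was at 9.66 and 5.41, with 3 bright probe sets from -4.24 to -1.69, and the other 17 expressed genes were within 2-fold, A4gnt of gland mucin at -0.46.

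Of 12 expressed cytochrome P450 genes Cyp2s1 was lower at -1.07 and none was higher, and of 16 phase II and ABC transport genes Gstt1 was lower at -1.25. Cyp2c29, outside the lists, was at 3.81 in vehicle, 3.99 at 12 hours, 3.91 at 2.5 days and 6.58 at 4.5 days. Autophagy and lysosome genes had a median of 0.03. Gabarapl1, a ubiquitin-like protein of autophagosomes, was lower at -1.07, and Atp6v0d2, a proton pump subunit, was at 6.49 and 8.76 after 9.23 at 2.5 days. Of 18 expressed S100 and annexin genes Anxa8 was at 1.51 and Anxa13 at -1.62.

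Endocrine genes were lower in 2 of 16 expressed cases, with a median of -0.42 and 16 of 18 negative differences. Somatostatin (Sst), the D cell hormone that restrains acid, was at 11.39 in vehicle, 11.24 at 12 hours, 10.50 at 2.5 days and 9.48 at 4.5 days. Ghrelin (Ghrl), the hunger hormone of X/A-like cells, was at 12.77, 12.66, 12.20 and 11.40. Both had the lowest of 4 levels on the last array. Chromogranin A (Chga) and Hdc, which makes histamine in enterochromaffin-like cells, each differed by -0.36. Tuft cell genes had a median of 0.03 with none past 2-fold.

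Markers of other tissues also differed between the arrays. The median of the 12 acinar genes was -0.47, with Clps, Pnliprp1 and Cel lower at -1.92, -1.90 and -1.52 and the elastase and trypsinogen genes Cela1 and Prss2 at -0.34 and -0.47. Squamous genes had a median of -0.37, with levels in vehicle from 4.55 to 11.36, Krt4 lower at -1.07 and Ivl higher at 1.54 on 1 of its 2 probe sets. Of 7 expressed intestinal genes 3 were lower, Apoa4, Spink4 at -1.58 and Fabp2 at -1.20. Fibroblast and endothelial medians were 0.21 and -0.37 with none past 2-fold, and none of the 3 red blood cell genes was expressed. The part of these tissues in the differences above was not tested. With the acinar and squamous lists left out, 467 genes were higher and 331 lower. This took out only the list members themselves and left 12283 expressed genes. It therefore cannot show the part of these tissues in the other genes.

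The 4.5-day array was then set against the 2.5-day tamoxifen array, a comparison that leaves vehicle out. There 30 genes were higher and 22 lower at 4.5 days, 0.248% and 0.182% of 12117 expressed genes, and these 2 arrays again hold 1 pool each. Poly-A controls differed between them with an SD of 0.16. The largest increases were Cyp2c29 at 2.67, Olfm4 at 2.57 and Mcpt1 at 2.23, followed by Aqp4 at 1.99 and Ly6m at 1.76. Ido1, the interferon-induced tryptophan dioxygenase, was at 4.05 and 5.73. Guca2b, which encodes the gut peptide uroguanylin, was at 5.63 and 6.98, and its relative guanylin (Guca2a) at 4.87 and 6.04. Mesothelin (Msln), a surface protein of mesothelium, was at 5.62 and 6.95.

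Among genes lower at 4.5 than at 2.5 days, the chitinase-like gene Chil3 went from 7.86 to 5.28, the iron-scavenging lipocalin gene Lcn2 from 7.63 to 5.14, S100a8 from 7.33 to 5.27 and S100a9 from 6.63 to 5.11. These are genes of acute myeloid or epithelial inflammation. Their vehicle levels were 5.02, 5.67, 4.56 and 5.52, so that the 4.5-day levels lay within 2-fold of vehicle. Reg3b and haptoglobin (Hp) differed by -2.41 and -1.73. Chia1, Pla2g1b, Mug1 and Clps, at -2.18, -1.57, -1.54 and -1.40, were lower at 4.5 days than on any other array. No member of the replication, mitosis, ribosome biogenesis or interferon lists was past 2-fold between the tamoxifen arrays, and their medians were -0.15, 0.04, 0.08 and 0.02. In the chief cell list 3 genes were lower and Rnase1 was higher, and in the SPEM list 4 were higher and none lower.

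**Figure D5:**
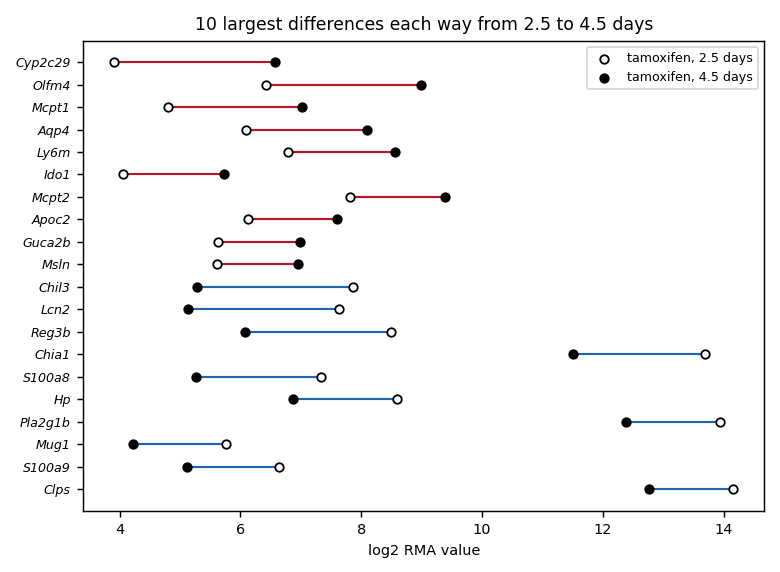
Levels 2.5 days (open points) and 4.5 days (filled points) after tamoxifen on the log2 RMA scale (horizontal axis) for the 10 named expressed genes with the largest increase (red lines) and the 10 with the largest decrease (blue lines) between these arrays, 1 pool each. Cyp2c29 stands at 3.91 and 6.58, and Chil3 at 7.86 and 5.28.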

How the data were processed

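Gene expression was measured on 4 Affymetrix genome-wide mouse arrays, and the 4.5-day tamoxifen and vehicle arrays were compared. Per the submitters' processing notes the authors used RMA in Partek, with versions not given in the sources used here. The authors deposited log2 values for 45101 probe sets, with the log base inferred here from their range. Quantile normalization within RMA would hide a change common to most transcripts.

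Of the probe sets 34958 had exactly 1 gene symbol in the platform annotation, 932 had several and 9211 none. Without the control probe sets these cover 18193 genes, and 9010 genes have more than 1 probe set. Gene IDs of 34754 of the named probe sets were in the RefSeq table of GRCm38.p6, and no symbol needed updating. With 1 array a side there is no test; the 2-fold rule and the array median filter are descriptions, and the number of arrays limits the precision. Members, 56 gene lists (791 genes, 727 measured, 64 not analysed here) and named genes were chosen with earlier results of these data known. Genes were named if they were among the 30 largest differences each way against vehicle, the 10 largest each way against 2.5 days, or members of a list. For each list the rule took up to 6 members with the largest difference and the most abundant member in vehicle; further list members, and the control genes of the label check, were chosen after their values were seen. Alternatives changed the level filter, the probe set and the scaling. Python 3.11.15, numpy 2.4.6 and pandas 2.3.3 were used, and the counting was tested on simulated data. In that simulation only genes well above the level cut-off in vehicle were changed, equally on all their probe sets. It therefore does not test genes near the cut-off or probe sets that disagree. Promoter sequences are from RefSeq, with 1 chromosome left out of the search, so genes on it count as having no promoter.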

Additional observations from a re-analysis of the deposited data

Results flagged for a closer look

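The 12-hour tamoxifen array does not enter the comparisons above except as levels. On it the pancreatic acinar list had a median 5.97 above vehicle, a signal above the control level in data outside the main comparison. The squamous list differed there by -3.27 in the median, with Krt4 at 4.74 against 10.89 in vehicle. This array stands apart from the others in these tissues, which bears on every 12-hour level quoted, and their part in those levels was not tested.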

How the results depend on the processing

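No paired analysis was possible because each group is 1 array, and for the same reason no sample could be left out in turn. Counts against vehicle ran from 319 (filter at the 75th percentile) to 701 (hybridisation control centring) for higher genes and from 226 (probe set of median absolute difference) to 352 (no level filter) for lower ones. Against the 2.5-day array, the 75th percentile filter left 14 genes higher and 15 lower. Where a gene had an even number of probe sets, the median-absolute-difference reading took the lower middle one by size of difference. Smaller differences and fewer calls are therefore partly built into that reading. Reading each gene from its probe set of median absolute difference, list medians became -0.75 (parietal), 0.27 (matrix proteases), 1.06 (replication) and 1.23 (mitosis); with the mean over all probe sets replication and mitosis were at 1.03 and 1.24, and with the probe set of highest mean on the 2 arrays compared matrix proteases were at 0.80. Among listed or ranked genes at least 2-fold different, some changed sign when read from the median-absolute-difference probe set. These were Bhlha15 (0.049), Cckbr (0.42), Cdc45 (-0.11), Ivl (-0.32) and Tpx2 (-0.13). Only the probe set of Cdc45 was in the expressed range, and those of the others were below the cut-off. Sign changes of smaller differences, such as that of Hsp90b1 to -0.10, are not listed in full. The medians of ER chaperone and lysosome genes, at -0.07 and -0.03, changed sign too. Of 191 called genes in the lists or ranks, 155 kept direction and 2-fold when read from that probe set, 163 with the mean of probe sets and 180 with hybridisation control centring. Centring on those controls also turned the sign of 11 list medians, all within 0.14 of 0 in size before, among them those of surface mucous, p53, estrogen, iron, apolipoprotein, phase II, vanin and gastric transcription factor genes. The number of arrays, 1 per group, limits all values.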
